A study of Mus musculus with 9 samples.

Results

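The genes described here are 37 members of the p53 and DNA damage response, taken by symbol from the deposited transcript tables of a mouse hepatoma experiment. For each gene the transcript with the highest mean read count over the 9 libraries was used. All 37 symbols were found among 28932 genes with a gene ID, and all 37 passed the filter on low counts, which left 12372 genes for testing. The cells are labelled Hepa 1 WT, a mouse hepatoma line, in the source label and HC1C in the cell line label. They were kept for 6 h with 10 nM FICZ (3 libraries), with 50 uM tryptamine (3 libraries) or as controls (3 libraries), which the treatment label calls untreated and the protocol names as vehicle. FICZ, formed from tryptophan in light, is a ligand of the aryl hydrocarbon receptor (AhR), and the series title names tryptamine, a monoamine made from tryptophan, as a proligand of that receptor. The labels give no genetic change in any group, and no label states separate cultures for the libraries of a group, so the p-values measure the spread between these libraries, which may be technical.

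p53, the product of Trp53, is a transcription factor that is held at a low level by the ubiquitin ligase Mdm2 and restrained by its relative Mdm4. Damaged DNA activates the kinases Atm and Atr, which act in part through Chek1 and Chek2, and p53 then accumulates mainly as protein, without a need for more of its own mRNA. The stabilised protein switches on genes that stop the cell cycle (Cdkn1a, which encodes p21), that repair DNA (Xpc), that promote apoptosis (Bax, Bbc3, Pmaip1) or that feed back on p53 itself (Mdm2, Ccng1). In a cell with an active p53 response several of its target genes may therefore rise, though not always all of them, while Trp53 mRNA need not move.

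Levels are CPM, read counts relative to the effective library size, and a change is a log2 fold change from edgeR. A gene is said to have risen or fallen only where its Benjamini-Hochberg adjusted p over all genes tested was under 0.05. The counts of the transcripts used, one for each gene, summed to 11594790 to 16715844 per library. Cyp1a1, the classical AhR target, lay at 55.4 to 63.9 CPM in the controls, at 951.1 to 1035 CPM with FICZ and at 674.3 to 753.8 CPM with tryptamine. The library of control replicate 3 differed from the rest: its correlation with each of the others over log CPM was 0.954 to 0.960, and edgeR's common dispersion had a square root of 0.156 when it was included and of 0.0748 when it was not. Most changes against control are therefore given both with all 9 libraries and without this one. Of 6 hepatocyte markers with counts, 4 (Alb, Afp, Trf and Apoa2) passed the filter on low counts, and the list summed to 786.1 to 988.4 CPM in the controls, 772.1 to 793.6 CPM with FICZ and 759 to 784.3 CPM with tryptamine. Fgb had 2 reads and Serpina1a 7 in all 9 libraries together. With FICZ all 4 tested markers had a log2 change below 0 (median -0.38, or -0.20 without control replicate 3). At an unadjusted p under 0.05, 3 of them were lower, where 4.6% of all genes tested are, and none passed in edgeR's test. Control replicate 3 was the highest control for each of the 4, such as Afp at 228 CPM against 150.9 and 117.3 CPM. Without it the log2 change of Trf was -0.001. The 10 markers of other cell types with counts summed to 1006 to 1360, 1325 to 1449 and 1274 to 1461 CPM, most of it from the collagen gene Col1a1. In all 9 libraries together the leukocyte markers Ptprc and Cd68 had 17 and 473 reads, and the endothelial markers Kdr and Pecam1 19 and 65. Sox9 had 10199 reads, Pdgfrb 5902, Des 1365, Krt19 192 and Acta2 180. The cells are labelled as a hepatoma line, so these reads need not come from other cell types. The part of these markers in the results was not tested, and in bulk samples fewer cells of a type and less RNA per cell cannot be told apart.

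Short windows before annotated gene starts were searched for the letters of p53 and AhR sites. RefSeq starts on build GRCm38.p6 were matched by gene for 29 of the 37 members; Zmat3, Tnfrsf10b, Ddb2, Pmaip1, Trp53inp1, Rrm2b, Perp and Xpc had no entry. The windows printed are the 250 bases before a start, 5′ to 3′ on the strand of the gene. They are examples: Cdkn1a and Mdm2 are the marker targets of p53, and Fas and Apaf1 are among the apoptosis genes described below. Both of these apoptosis genes had a positive log2 change with FICZ, so they do not stand for the list. Capitals mark GCGTG, the core to which the AhR complex binds, on either strand (so CACGC on the printed strand), and in the first window a pair of CATG, the core tetramer of p53 sites, with 6 bases of any kind between them.
Cdkn1a, chr17:29090729-29090978, plus strand: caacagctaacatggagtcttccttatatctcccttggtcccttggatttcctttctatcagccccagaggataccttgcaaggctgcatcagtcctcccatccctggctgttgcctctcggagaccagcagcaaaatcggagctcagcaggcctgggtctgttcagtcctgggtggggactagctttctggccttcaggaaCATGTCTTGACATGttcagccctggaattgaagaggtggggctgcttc
Cdkn1a, chr17:29093519-29093768, plus strand: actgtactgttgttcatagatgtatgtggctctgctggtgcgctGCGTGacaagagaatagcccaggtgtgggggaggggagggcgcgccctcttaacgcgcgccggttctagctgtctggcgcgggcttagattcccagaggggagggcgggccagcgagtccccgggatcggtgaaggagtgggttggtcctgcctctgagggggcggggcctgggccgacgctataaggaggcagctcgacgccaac
Mdm2, chr10:117710759-117711008, minus strand: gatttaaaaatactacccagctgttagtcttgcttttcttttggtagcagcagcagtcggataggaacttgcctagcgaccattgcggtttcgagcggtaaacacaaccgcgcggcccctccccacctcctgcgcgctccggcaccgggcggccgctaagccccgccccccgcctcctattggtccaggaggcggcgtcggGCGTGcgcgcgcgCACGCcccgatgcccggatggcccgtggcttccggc
Fas, chr19:34290409-34290658, plus strand: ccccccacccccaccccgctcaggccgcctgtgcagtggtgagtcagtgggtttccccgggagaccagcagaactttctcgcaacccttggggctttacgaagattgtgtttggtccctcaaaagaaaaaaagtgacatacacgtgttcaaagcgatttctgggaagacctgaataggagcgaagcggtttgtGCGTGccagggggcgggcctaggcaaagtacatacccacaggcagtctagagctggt
Apaf1, chr10:91082744-91082993, minus strand: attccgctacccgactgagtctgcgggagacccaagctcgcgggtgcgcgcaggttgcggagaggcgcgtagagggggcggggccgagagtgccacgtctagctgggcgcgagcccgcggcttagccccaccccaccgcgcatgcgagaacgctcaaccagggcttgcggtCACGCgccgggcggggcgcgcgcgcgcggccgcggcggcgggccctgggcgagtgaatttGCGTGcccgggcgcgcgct

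The first Cdkn1a window holds the p53 pair, which begins 48 bases before that start, and the second, which belongs to the start further along the chromosome, holds GCGTG. Cdkn1a was the only one of the 29 members with the p53 pair (3.45%), against 0.57% of 27025 genes with a window and 0.317% of 9145 tested genes with one. GCGTG lay in a window of 18 of the 29 members (62.1%), in 30.9% of the 27025 genes and in 50.5% of the 9145 tested genes with a window. Of the matched apoptosis and survival genes not printed, Bbc3, Bcl2l1, Aen, Ei24 and Dram1 held it, and Bax, Bid, Mcl1 and Phlda3 did not. Whether it goes with the changes was not tested. These matches describe letters in these windows and are no measurement of binding. Sites outside the windows or with other letters would be missed, so a gene without a match may still hold one.

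At baseline the pathway was expressed throughout, but over a wide range. Per kilobase of the counted transcript, and averaged over the 8 libraries without control replicate 3, the most abundant members were the pore-forming apoptosis gene Bax at 126.7 CPM per kb, the kinase gene Plk2 at 117.7 and Trp53 itself at 116.2. The survival gene Bcl2l1 (100.7), Cdkn1a (95.7), Mdm2 (90.6) and Phlda3 (90.6), which encodes an inhibitor of AKT, followed. The ranges of Bax (114.5 to 140.5 CPM per kb), Plk2 (110.5 to 124.4) and Trp53 (111.8 to 125) overlapped, so their order is within the spread between libraries. At the bottom lay the damage recognition genes Xpc at 2.72 CPM per kb and Ddb2 at 2.99, the apoptosis gene Bbc3 (Puma) at 2.93 and the antiproliferative gene Btg2 at 3.02, whose ranges also overlapped. Ddb2 had 51 to 154 raw reads in a library and Bbc3 65 to 113, and without control replicate 3 Ddb2 (SE 0.232 on the log2 scale with FICZ), Bbc3 and Btg2 (0.211 each) had the largest errors. With all 9 libraries the largest were those of Mdm4 (0.333) and Atm (0.291).

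The comparison of FICZ with control asks whether the p53 pathway moved while the AhR was active. With all 9 libraries none of the 37 genes passed in edgeR's quasi-likelihood test (0 of 37, adjusted p from 0.164 to 0.968), against 14 of 12372 genes tested that rose (0.113%) and 0 that fell (0%). Few genes of any kind passed, so this does not show that the pathway stayed still. The median log2 change of the members was 0.10, with 25 above 0 and 12 below, beside -0.01 for all genes tested, and it was 0.06 without control replicate 3. At an unadjusted p under 0.05 there were 5 members higher (Cdkn1a, Ccng1, Plk3, Apaf1 and Tnfrsf10b), where the background is 3.52% of genes, and 2 lower (Sesn1 and Bid), where it is 4.6%. The share of the 37 that was higher lay above its background and the share that was lower near it, and neither was tested. The members were chosen with earlier results of these data known, so these shares are not independent of that choice. Without control replicate 3 a single member passed: Tnfrsf10b, the death receptor gene, rose, against 101 of 12539 genes called in that fit (0.805%, of which 0.574% rose and 0.231% fell). By the unadjusted p of that fit, 8 members were higher (Cdkn1a, Ccng1, Gadd45g, Plk3, Pmaip1, Apaf1, Fas and Tnfrsf10b) and 1 was lower (Sesn1), where 5.12% and 4.85% of genes are.

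None of the 4 regulators at the head of the pathway passed with FICZ, with or without control replicate 3. Trp53 (gene ID 22059) had 213.1, 213.4 and 216.7 CPM in the controls (replicates 1 to 3 in this order, as throughout), 228.1, 220 and 209.8 CPM with FICZ, and 208.8, 233.5 and 210.3 CPM with tryptamine. The 3 groups overlapped, and the log2 change with FICZ was 0.03 ± 0.086 (SE; edgeR adjusted p = 0.884). Mdm2 (gene ID 17246), both a target of p53 and its main inhibitor, had 289, 265.7 and 242.1 CPM in the controls, 278.3, 294.8 and 294.7 CPM with FICZ, and 280.9, 273 and 292.5 CPM with tryptamine. Its log2 change with FICZ was 0.12 ± 0.091 (SE; edgeR adjusted p = 0.616), and without control replicate 3 it was 0.06, with a 95% interval from -0.07 to 0.19. Pml, which encodes the organiser of the nuclear bodies where p53 is modified, had a log2 change of 0.05 with all 9 libraries and of -0.09 without control replicate 3.

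Mdm4 shows how much a single control library weighed. Its levels were 58.3 and 53.8 CPM in control replicates 1 and 2 but 16.6 CPM in control replicate 3, while the FICZ libraries held 54, 57.6 and 56.3 CPM and the tryptamine libraries 60.2, 55.2 and 54.3 CPM. Every library but that one lay between 53.8 and 60.2 CPM. The log2 change with FICZ was 0.38 ± 0.333 (SE) with all 9 libraries and 0.00 without control replicate 3, with a 95% interval from -0.19 to 0.19.

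Among the 10 growth arrest and stress genes none passed with either set of libraries. The median log2 change was 0.15 with FICZ, and 7 of the 10 lay above 0. Cdkn1a (gene ID 12575), which encodes the p21 inhibitor of cyclin-dependent kinases and is the most used readout of p53, had 163.7, 159.9 and 181.9 CPM in the controls and 207.3, 197.5 and 191.3 CPM with FICZ. The 3 FICZ libraries lay above the 3 controls, nearest to control replicate 3. The log2 change was 0.24 ± 0.101 (SE; edgeR adjusted p = 0.601), and without control replicate 3 it was 0.30 ± 0.076 (SE; edgeR adjusted p = 0.0698). The adjusted p of Cdkn1a ran from 0.0605 to 0.834 over the 17 alternative fits, so it passed in none of them.

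Ccng1, which encodes cyclin G1, a feedback partner of Mdm2, had 218.1, 215.1 and 166.7 CPM in the controls and 243.9, 236.5 and 251.9 CPM with FICZ. The FICZ libraries lay above the controls, with the gap to control replicate 3 the widest, and the log2 change fell from 0.29 ± 0.117 (SE) to 0.17 ± 0.070 (SE) without that library. Neither passed (edgeR adjusted p = 0.601 and 0.382). Plk3, a stress-responsive polo-like kinase gene, had 9.54, 10.6 and 8.96 CPM in the controls and 15, 12.5 and 12 CPM with FICZ, a log2 change of 0.44 ± 0.175 (SE), or 0.39 ± 0.177 (SE) without control replicate 3. Its more abundant relative Plk2 had 294.4 to 320.5 CPM in the controls and 324.5 to 339.7 CPM with FICZ, a separation by a log2 change of 0.10 ± 0.080 (SE), or 0.07 ± 0.061 (SE) without that control.

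The 3 growth arrest members below 0 were Sesn1, Gadd45a and Btg2. Sesn1, which encodes sestrin 1, a restraint on mTORC1, had 44.3, 34.1 and 43 CPM in the controls against 31.5, 33.4 and 32.9 CPM with FICZ. The FICZ libraries lay below all controls, though control replicate 2 was almost level with them, and the log2 change was -0.31 ± 0.120 (SE; edgeR adjusted p = 0.601), or -0.26 ± 0.112 (SE) without control replicate 3. The Gadd45 genes, which encode stress sensors that bind p21 and PCNA, overlapped between the groups. Gadd45a had 15.4, 18.9 and 24.7 CPM in the controls and 17.5, 16 and 18.6 CPM with FICZ, a log2 change of -0.17, or 0.02 without control replicate 3. Gadd45g had 9.67, 14.4 and 19.2 CPM and 16.1, 17.7 and 13.5 CPM, a log2 change of 0.14 ± 0.227 (SE), which was 0.39 ± 0.176 (SE; edgeR adjusted p = 0.446) without control replicate 3. That library was the highest of the 9 for both genes. Btg2 had 7.02 to 10.8 CPM in the controls and 8 to 9.82 CPM with FICZ, and log2 changes of -0.03 and 0.01. Trp53inp1, a p53 cofactor and autophagy gene, and Zmat3, an RNA-binding p53 target, had log2 changes of 0.37 and 0.16, which were 0.21 and 0.07 without control replicate 3.

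**Figure D1:**
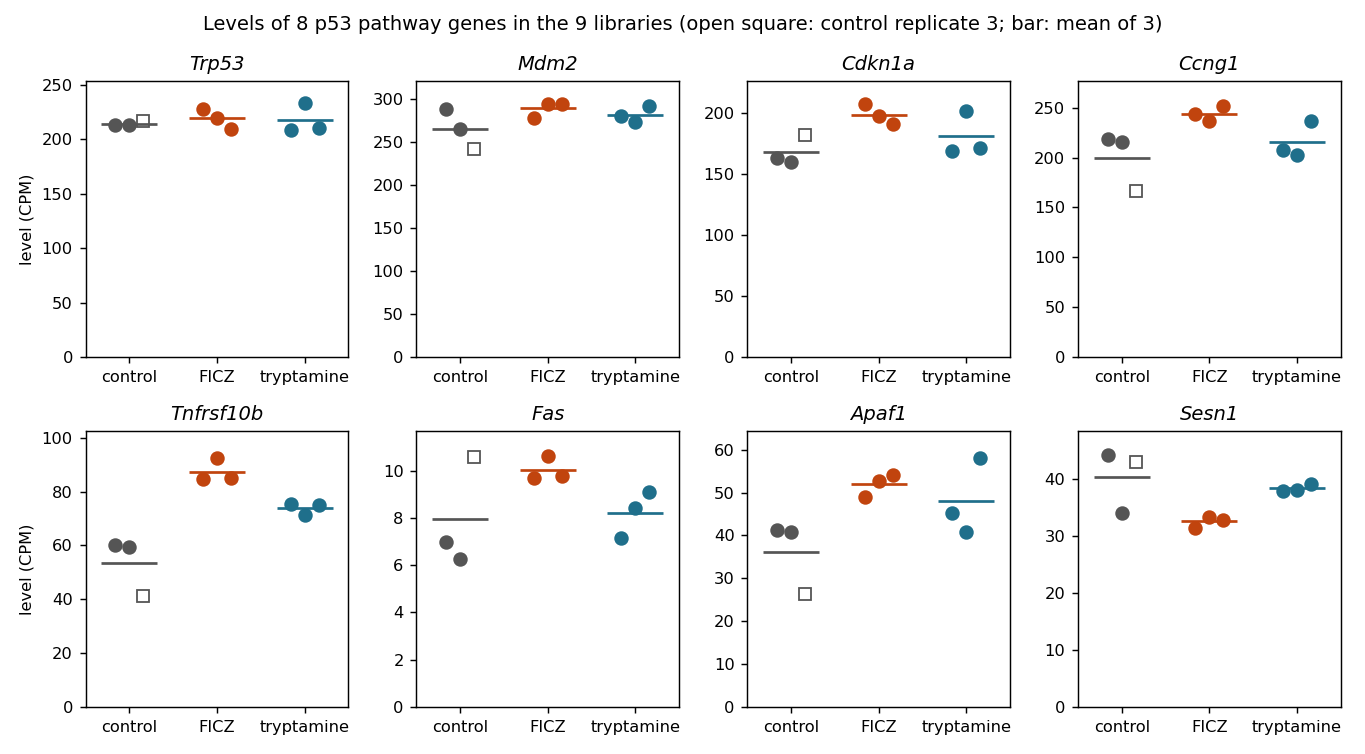
Levels in CPM (linear axes from 0) of 8 of the 37 genes in each of the 9 libraries; points are libraries, the open square is control replicate 3 and the bar is the mean of 3. Tnfrsf10b separates all 3 groups, from 41.2 to 60 CPM in control and 84.7 to 92.4 CPM with FICZ, while Trp53 and Mdm2 overlap between groups.

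The 14 genes of apoptosis and survival held the one member that passed in any fit. Tnfrsf10b (gene ID 21933) encodes the mouse receptor for the death ligand TRAIL and is a p53 target. It had 60, 59.6 and 41.2 CPM in the controls, 84.7, 92.4 and 85.1 CPM with FICZ, and 75.2, 71.3 and 75.2 CPM with tryptamine. Each FICZ library lay above each tryptamine library, and each of those above each control. The FICZ log2 change was 0.70 ± 0.140 (SE, n = 3; edgeR adjusted p = 0.164) with all 9 libraries. Leaving out control replicate 3 gave 0.55 ± 0.085 (SE), with a 95% interval from 0.38 to 0.72, which passed (edgeR adjusted p = 0.00034). It also passed in DESeq2's Wald test (adjusted p = 0.00196) and in limma voom with a quality weight for each library (adjusted p = 0.000233), and not in the other 14 alternatives, where its adjusted p went up to 0.77. The share of members that passed without control replicate 3, 1 of 37, stands beside 0.805% of all genes.

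Tnfrsf10b was thus low in control replicate 3, and the change computed without that library was the smaller of the values, with a smaller error. The other death receptor gene, Fas, was rarer and went the other way in that library: it had 6.97, 6.26 and 10.6 CPM in the controls, and 9.68, 10.6 and 9.77 CPM with FICZ. With all 9 libraries the groups overlapped (log2 0.34 ± 0.208, SE), and without control replicate 3 they did not (log2 0.60 ± 0.188, SE; edgeR adjusted p = 0.193). Its 95% interval then ran from 0.21 to 0.99.

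Apaf1, which encodes the scaffold of the apoptosome that activates caspase-9, had 41.2, 40.7 and 26.4 CPM in the controls and 49, 52.8 and 54.1 CPM with FICZ. The FICZ libraries lay above the controls, and the log2 change was 0.52 ± 0.182 (SE; edgeR adjusted p = 0.601), or 0.34 ± 0.117 (SE; edgeR adjusted p = 0.26) without control replicate 3. Bid, a BH3-only gene that links death receptors to mitochondria, had 79.5, 69.8 and 91.5 CPM in the controls and 69.4, 68.8 and 63.8 CPM with FICZ. The groups did not overlap, though their nearest libraries were almost level, and the log2 change was -0.25 ± 0.113 (SE), or -0.15 ± 0.088 (SE) without control replicate 3.

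The best known apoptotic targets of p53, Bax, Pmaip1 and Bbc3, did not pass. Bax had 99.5, 111 and 153 CPM in the controls and 116.5, 122.1 and 108.1 CPM with FICZ, and its log2 change was -0.07 with all 9 libraries and 0.14 without control replicate 3. Pmaip1 (Noxa) had 123.2 to 150.1 CPM and 144.8 to 156.2 CPM, a log2 change of 0.12 ± 0.099 (SE), or 0.17 ± 0.077 (SE; edgeR adjusted p = 0.443) without control replicate 3. Bbc3 had 6.16, 6.54 and 9.64 CPM in the controls and 5.83, 6.73 and 6.29 CPM with FICZ, with a log2 change of -0.24 ± 0.207 (SE), or -0.01 without control replicate 3. The survival genes Bcl2l1 and Mcl1 had log2 changes of -0.14 and -0.11 with all 9 libraries, and of -0.07 and -0.02 without control replicate 3. The remaining apoptosis members, Perp, Phlda3, Aen, Ei24 and Dram1, ran from -0.24 (Phlda3) to 0.25 (Dram1), and from -0.04 (Perp) to 0.15 (Ei24) without it.

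The 5 genes of nucleotide supply and repair had a median log2 change of 0.10 with FICZ, and of -0.13 without control replicate 3. Rrm2b, the p53-inducible subunit of ribonucleotide reductase, had 61.9, 70.7 and 40.2 CPM in the controls and 58.2, 64.4 and 77 CPM with FICZ, and its log2 change of 0.21 was 0.01 without control replicate 3. Ercc5, the nucleotide excision repair endonuclease XPG, had 46.6, 47.5 and 43.2 CPM and 50.9, 52.1 and 54.6 CPM, a separation with a log2 change of 0.20 ± 0.101 (SE; edgeR adjusted p = 0.601), or 0.16 ± 0.095 (SE) without control replicate 3. Xpc had 9.81 to 10.7 CPM in the controls and 7.9 to 10.7 CPM with FICZ, and Ddb2 4.35 to 7.09 CPM and 5.54 to 6.26 CPM. Their log2 changes were -0.10 and -0.03 with all 9 libraries, and -0.13 and -0.21 without control replicate 3. The translesion polymerase gene Polk had 53.5, 56.3 and 30.9 CPM in the controls and 49.3, 46.9 and 54.3 CPM with FICZ, so its log2 change of 0.10 became -0.13 without control replicate 3.

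Of the 4 damage signalling kinases, Atm and Atr followed Mdm4 in their low control replicate 3. Atm had 66.1, 55.9 and 24.1 CPM in the controls, 56.4, 58.7 and 73.5 CPM with FICZ and 61.2, 53.3 and 73.6 CPM with tryptamine. The FICZ log2 change of 0.36 ± 0.291 (SE) was 0.04 ± 0.121 (SE) without that library. Atr had 48.7, 50.8 and 27.4 CPM in the controls and 44.2, 49.4 and 51.7 CPM with FICZ, and its log2 change moved from 0.19 to -0.04. The checkpoint kinase genes Chek1 (30.4 to 32.5 CPM in the controls, 31.6 to 34.7 with FICZ) and Chek2 (12.6 to 15 and 13.1 to 16.4) overlapped between the groups, with log2 changes of 0.08 and 0.12, or 0.10 and 0.07 without control replicate 3.

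**Figure D2:**
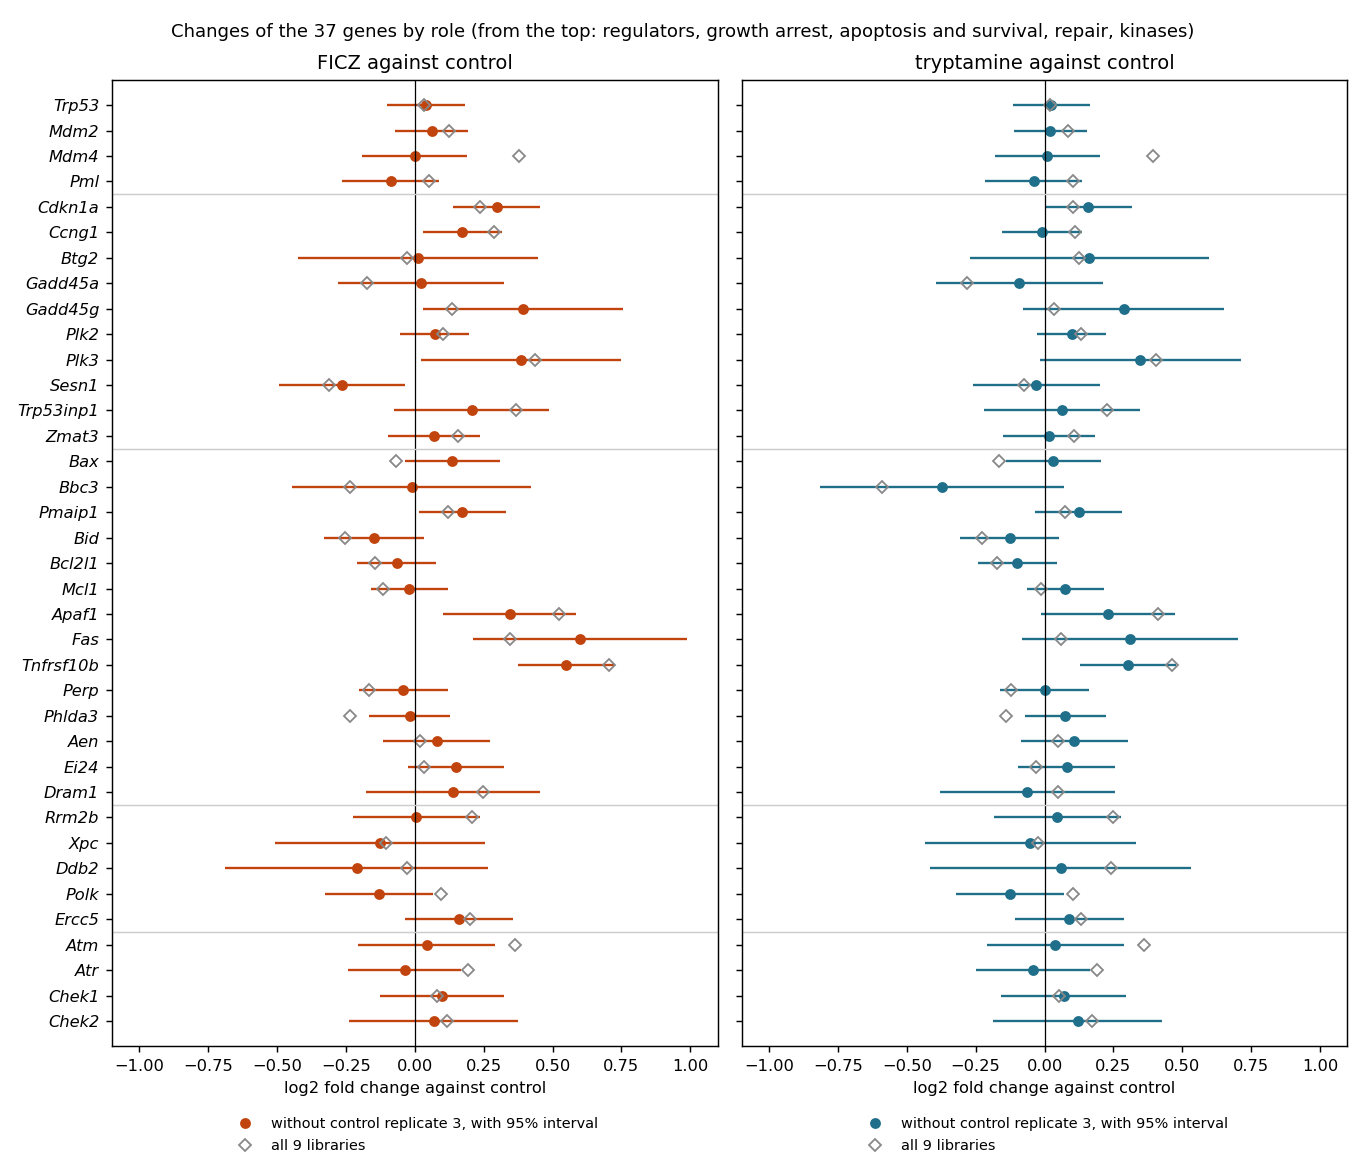
Log2 fold change of each of the 37 genes against control with FICZ (left) and tryptamine (right), grouped by role; filled points are the fit without control replicate 3 with its 95% interval, open diamonds are the fit with all 9 libraries. Tnfrsf10b (0.55) and Fas (0.60) lie highest with FICZ, and open and filled marks lie furthest apart for Mdm4.

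Counted by library, FICZ and control did not overlap for 7 members that were higher (Cdkn1a, Ccng1, Plk2, Plk3, Apaf1, Tnfrsf10b and Ercc5), where 8.22% of all genes tested separate that way, and for 2 that were lower (Sesn1 and Bid), where 7.4% do. Without control replicate 3, Fas and Ei24 joined the higher members, which made 9, and Ddb2 the lower, which made 3, beside 13.9% and 14.1% of genes. The intervals bound the changes by the spread between these libraries, which may be technical. In the fit without control replicate 3 the 95% interval of all 37 members lay within a 2-fold change in either direction, and the bounds furthest from 0 were -0.69 (Ddb2) and 0.99 (Fas). With all 9 libraries 34 of 37 did. The median SE of the members was 0.14 with control replicate 3 and 0.095 without it.

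The comparison of tryptamine with control asks the same of the proligand. None of the 37 genes passed (0 of 37, edgeR adjusted p from 0.741 to 0.964), beside 1 of 12372 genes (0.00808%) that rose and 0 that fell. The median log2 change of the members was 0.09, with 26 above 0 and 11 below, and all genes tested had 0.00. At an unadjusted p under 0.05, Plk3, Apaf1 and Tnfrsf10b were higher (background 2.18% of genes) and Bbc3 was lower (2.97%). Without control replicate 3 the median was 0.05 and again 0 members passed, beside 25 genes called (0.199%, with 0.183% higher and 0.016% lower). In that fit 2 members were higher at an unadjusted p under 0.05, Tnfrsf10b and Cdkn1a, and 0 were lower, where 3.57% and 3% of genes are. This comparison shares its control libraries with that of FICZ.

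Tnfrsf10b had a log2 change of 0.46 ± 0.140 (SE; edgeR adjusted p = 0.741) with tryptamine, and of 0.30 ± 0.085 (SE; edgeR adjusted p = 0.324) without control replicate 3. All 3 tryptamine libraries lay above all 3 controls, yet the lowest adjusted p over the alternatives was 0.2. Cdkn1a had 169.4, 202.1 and 171.7 CPM with tryptamine, which overlapped the controls, control replicate 3 being at 181.9 CPM, and its log2 change was 0.10, or 0.16 ± 0.076 (SE) without that library. Plk3 had 10.1, 14.6 and 13.8 CPM with tryptamine and a log2 change of 0.40 ± 0.176 (SE), or 0.35 ± 0.177 (SE) without control replicate 3. Apaf1 had 45.2, 40.8 and 58.1 CPM, and its log2 change of 0.41 was 0.23 without control replicate 3.

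The lowest value with tryptamine was that of Bbc3, at 4.42, 5.02 and 5.29 CPM against 6.16, 6.54 and 9.64 CPM in the controls. The groups did not overlap, but these were 65 to 82 raw reads a library, and the log2 change of -0.59 ± 0.211 (SE) became -0.37 ± 0.215 (SE) without control replicate 3 (edgeR adjusted p = 0.741 and 0.849). Groups without overlap numbered 4 higher (Plk2, Tnfrsf10b, Ercc5 and Chek2), beside 5.19% of genes, and 1 lower (Bbc3), beside 4.87%. When control replicate 3 was left out there were 8 higher (Cdkn1a, Plk2, Fas, Tnfrsf10b, Phlda3, Aen, Ercc5 and Chek2) and 2 lower (Bbc3 and Polk), beside 10.2% and 9.84%. All 37 intervals then lay within a 2-fold change, from -0.82 (Bbc3) to 0.71 (Plk3) at the furthest bounds.

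The direct comparison of FICZ with tryptamine, at their unequal doses of 10 nM and 50 uM, does not use the controls for its means. None of the 37 genes passed with all 9 libraries (0 of 37, edgeR adjusted p = 1 for each), beside 0 of 12372 genes in either direction and 0.703% and 1.03% at an unadjusted p under 0.05. Without control replicate 3, which here enters through the spread, the scaling and the genes tested but not through the group means, 17 genes were called (0.136%, with 0.12% higher and 0.016% lower with FICZ) and again 0 members. At an unadjusted p under 0.05 that fit had Tnfrsf10b and Ccng1 higher and Sesn1 lower, where 3.01% and 2.96% of genes are. Tnfrsf10b was 0.25 ± 0.074 (SE) higher with FICZ on the log2 scale (edgeR adjusted p = 0.412), Ccng1 0.18 ± 0.063 (SE; edgeR adjusted p = 0.605), and Sesn1 had -0.23 ± 0.101 (SE; edgeR adjusted p = 0.727). The FICZ and tryptamine libraries did not overlap for Bbc3, Fas and Tnfrsf10b, higher with FICZ (5.46% of genes), or for Sesn1 and Phlda3, lower (5.85%). All 37 intervals lay within a 2-fold change with and without control replicate 3, the widest bounds without it being -0.70 (Ddb2) and 0.76 (Bbc3).

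Control replicate 3 touched these genes in both directions. It was the lowest of the 9 libraries for 18 members and the highest for 11. The medians fell with transcript length in the members and in all genes. The 5 members counted on a transcript of up to 1500 nt (Gadd45a, Gadd45g, Bax, Fas and Phlda3) had a median log2 difference of 0.57 between control replicate 3 and the other controls, beside 0.52 for 2330 genes of that class. Over 1500 and up to 3000 nt the medians were 0.16 over 14 members and 0.17 over 4175 genes, and over 3000 and up to 6000 nt they were -0.29 over 14 members and -0.24 over 4542 genes. Over 6000 nt the 4 members Zmat3, Apaf1, Atm and Atr had -0.74, and 1325 genes -0.84. The median SD of the 37 members was 14.5% of the mean in control, 5.25% with FICZ and 6.92% with tryptamine.

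**Figure D3:**
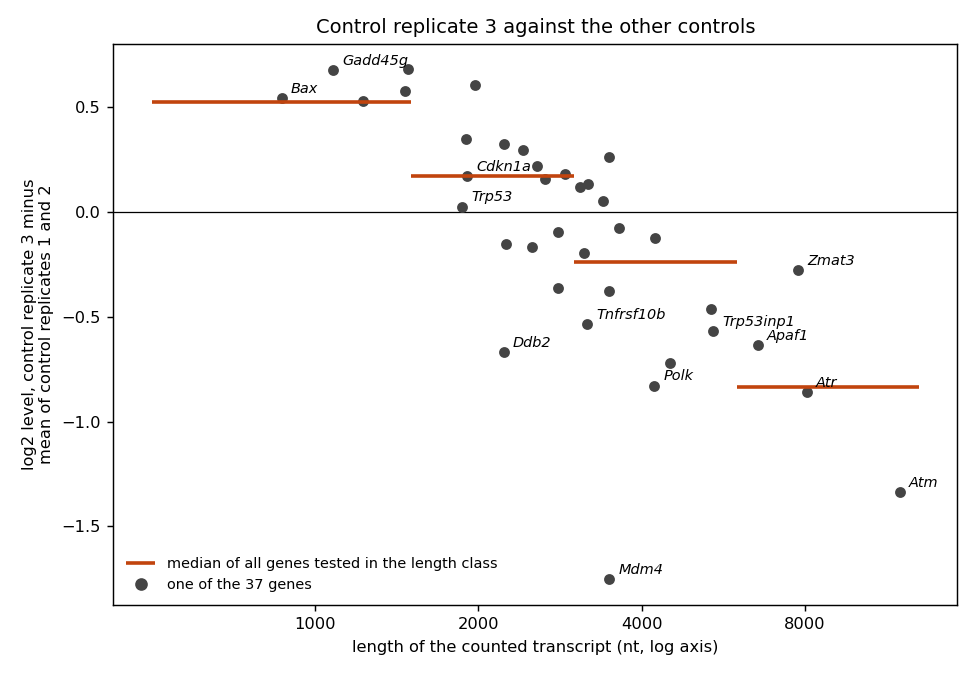
Log2 level of each of the 37 genes in control replicate 3 minus the mean of control replicates 1 and 2, against the length of the counted transcript in nt (log axis); red lines are medians of all genes tested in 4 length classes. The members fall from about the level of Bax and Gadd45g at the short end to Atm at the long end, and Mdm4 lies lowest.

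The authors' deposited tables test each transcript separately, and list 323 transcripts for the 37 genes, which share reads within a gene and are not independent. At the authors' adjusted p under 0.05, FICZ over control gave 24 transcripts higher, of 7 genes, and 2 lower. Over all transcripts with an adjusted p in the authors' deposited table for that pair, 2.38% were higher and 3.23% lower. All 5 transcripts of Tnfrsf10b were among them, 8 of 13 of Apaf1, 4 of 8 of Cdkn1a, 3 of 13 of Atm, 2 of 16 of Mdm2, 1 of 11 of Ccng1 and 1 of 16 of Atr. Those lower were 1 of 7 of Mcl1 and 1 of 3 of Phlda3. Tryptamine over control gave 4 higher (2 each of Apaf1 and Tnfrsf10b) and 0 lower, and FICZ over tryptamine gave 0, beside 0.393% and 1.05% of all transcripts for tryptamine over control and 0.0641% and 0.0153% for FICZ over tryptamine. For the Tnfrsf10b transcript counted here, of 3179 nt and 8 exons, the authors' deposited table gives a FICZ log2 change of 0.66 with an adjusted p of 2.85e-05, and 0.42 with 0.123 for tryptamine. In the authors' deposited lists of genes with higher transcripts, 81 with FICZ and 22 with tryptamine, Apaf1 is the only member, in both.

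All 24 of the transcripts that the authors' deposited table calls higher with FICZ were lower in control replicate 3 than in the other controls, by a median log2 difference of -1.06. The call used that library and the same FICZ libraries, so a low value there and a higher FICZ level are both favoured by the selection. Set against control replicates 1 and 2 alone, the FICZ libraries were higher for these 24 by a median of 0.34 on the log2 scale (range 0.05 to 0.87). Tnfrsf10b had 0.51 to 0.60 over its 5 transcripts and Cdkn1a 0.30 to 0.32 over 4, whereas Atm had 0.05 to 0.08 over 3. These differences used mean CPM plus 0.05 and carry no test.

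Apaf1 and Atm, chosen after their values were seen, show the read counts behind such values. An Apaf1 transcript of 2710 nt and 5 exons had 69, 60 and 4 reads in control replicates 1 to 3 and 92, 141 and 104 with FICZ, and one of 1596 nt and 5 exons had 73, 71 and 6 against 124, 169 and 119. A single-exon Apaf1 transcript of 1349 nt had 92, 112 and 116 reads in the controls and 101, 145 and 124 with FICZ. In the third control these transcripts of 5 exons had few reads and this single-exon one did not, but a single-exon transcript could also be low there: one of Plk2, of 2316 nt, had 1585, 1695 and 551. The Atm transcript of 11964 nt had 977, 812 and 283 reads in the controls, while a single-exon one of 1629 nt had 139, 103 and 109. Cdkn1a differed by transcript as well: that of 1910 nt used here had 2420, 2324 and 2132 reads in the controls, and one of 758 nt and 3 exons had 839, 906 and 481.

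**Figure D4:**
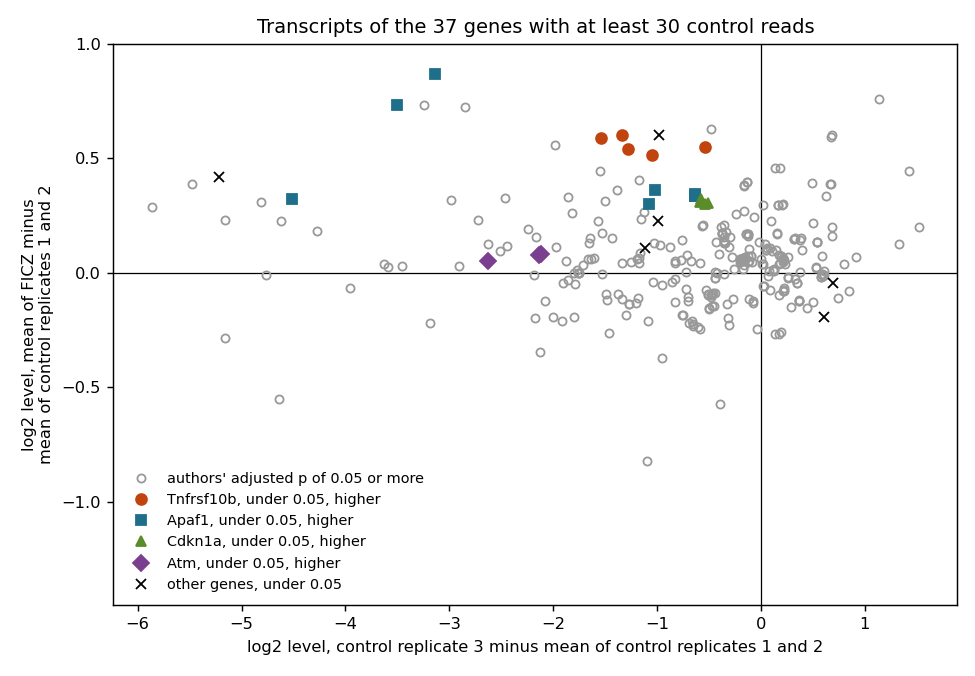
Each of 312 transcripts of the 37 genes with at least 30 reads in the controls, by its log2 difference between control replicate 3 and the other controls (x) and between FICZ and control replicates 1 and 2 (y); filled marks and crosses have an authors' adjusted p under 0.05. The called higher transcripts all lie left of 0 on the x axis, a side that the call itself favours. Tnfrsf10b lies between 0.51 and 0.60 on the y axis and Atm between 0.05 and 0.08.

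Other genes of the same pathways gave few further calls. Of 39 other p53 pathway genes tested, 30 checkpoint and strand break genes and 29 excision, mismatch and bypass repair genes, 0 passed in any of the 3 comparisons with all 9 libraries, and their medians with FICZ were 0.03, 0.00 and -0.03. At an unadjusted p under 0.05 with FICZ there were 1 higher and 2 lower, 1 and 1, and 0 and 0. Of all genes tested, 3.52% were higher and 4.6% lower at that threshold. Without control replicate 3, Thbs1, which encodes the matrix protein thrombospondin 1, fell with FICZ (log2 -0.29 ± 0.052, SE; edgeR adjusted p = 0.00235), from 1082 and 1031 CPM in control replicates 1 and 2 to a mean of 862.8 CPM. In the fit without control replicate 3, 0.231% of all genes tested fell. With all 9 libraries the log2 change of Thbs1 was -0.06, with control replicate 3 at 584.4 CPM. In limma voom with quality weights, Thbs1 fell (log2 -0.27, adjusted p = 0.0366) and Ddit4, a stress-induced inhibitor of mTORC1, rose (log2 0.56 ± 0.134, SE; adjusted p = 0.0426).

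Members of those lists with the smallest p did not pass in edgeR's test with all 9 libraries. Igfbp3, which encodes a binding protein for insulin-like growth factors, had a FICZ log2 change of -0.40 ± 0.114 (SE; edgeR adjusted p = 0.574), or -0.30 ± 0.080 (SE; edgeR adjusted p = 0.0945) without control replicate 3. Siva1, an apoptosis gene, had -0.69 ± 0.182 (SE) with tryptamine and -0.48 without control replicate 3, and Sfn, which encodes 14-3-3 sigma, had 0.34 ± 0.164 (SE) between FICZ and tryptamine. Among checkpoint genes Brca1 had 0.37 with FICZ and 0.36 with tryptamine, which were 0.18 and 0.17 without control replicate 3, while the 9-1-1 clamp genes Rad1 and Rad9 had -0.33 and -0.39 with FICZ, which were -0.14 and -0.09. Among repair genes the nuclease gene Ercc1 had -0.44 with FICZ and -0.17 without control replicate 3, and the damage binding gene Xpa had 0.35 with tryptamine and 0.65 ± 0.189 (SE; edgeR adjusted p = 0.4) without it. Other genes named by the same rule (Gpx1, Atrip, Xrcc5, Ercc6, Ogg1, Polb, Polh, Poli and Rad23b) had log2 changes from -0.36 (Polb) to 0.36 (Polh) with FICZ and from -0.39 (Gpx1) to 0.24 (Polh) with tryptamine, and none passed in edgeR's quasi-likelihood test.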

How the data were processed

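Total RNA of 9 libraries of mouse hepatoma cells was sequenced, 3 each of control, FICZ and tryptamine. The deposited tables hold, per the file headers, raw read counts of each library for 189660 transcripts, and the authors' own p-values, both raw and adjusted, with the authors' log2 fold changes for each pair of groups. The submitters' processing notes name DESeq, with no version. The aligner, the way of counting, the build and the annotation were not given in the sources used here. A sum over transcripts was 5.37 to 5.62 times the total used. Bax transcripts of 869, 826 and 770 nt, for example, had 1471, 1470 and 1470 reads in control replicate 1. Transcripts of a gene were taken to share reads, so the transcript with the highest mean count stands for each gene. Rows that name no gene ID were dropped, which took 3.56 to 4.23% of a library's counts.

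The 9 libraries were fitted together with edgeR 4.0.16 (R 4.3.3), using TMM factors, filterByExpr and a design of group alone, and tested by quasi-likelihood, and p-values were adjusted over 12372 genes (Benjamini-Hochberg, threshold 0.05). The SE is the size of the log2 fold change over the square root of F, and intervals are at 95%. The scripts were tested on simulated data. Alternatives were DESeq2 1.42.0, limma 3.58.1 voom with library quality weights, other filters, summed counts, a replicate block and each library left out in turn. Between libraries of different groups, correlations of deviations from the group mean ran from -0.058 to 0.116 for equal replicate numbers. For unequal numbers they ran from -0.122 to 0.102. Between FICZ and tryptamine, equal numbers had 0.054, 0.044 and 0.116 and unequal ones -0.122 to 0.079. Control replicate 3 stands apart and weighs on the pairs with controls, so this check cannot settle whether the numbers pair the samples.

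The 37 members and the other gene lists were chosen with earlier results of these data known. All 37 members are named; of the other lists, genes that passed and up to 3 with the smallest p in each comparison are named, and Cyp1a1 serves as the check that the treatments acted. Some genes that this rule would name are not reported here. Promoter windows are from RefSeq on GRCm38.p6. Genes without a row of counts under their symbol are not analysed here.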

Additional observations from a re-analysis of the deposited data

How the results depend on the processing

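Of the 37 members, none passed against control with tryptamine or between the treatments under any of the 17 alternatives, and with FICZ only Tnfrsf10b did, in 3 of them: 1 member was called by DESeq2's Wald test and 1 by limma voom with quality weights, and leaving out single libraries gave 0 to 1, the 1 being without control replicate 3. Of the other p53 pathway genes, voom called 2 with FICZ, and leaving out single libraries gave 0 to 1. The median log2 change of the members with FICZ, 0.10 with all 9 libraries, was 0.062 in voom and 0.061 to 0.134 without single libraries, and with tryptamine it was 0.045 in voom and 0.047 to 0.133. The log2 changes of members that did not pass changed sign in 25 of 629 values with FICZ (37 members under 17 alternatives; 13 genes), 40 of 629 with tryptamine (19 genes) and 31 of 629 between the treatments (16 genes), and no called value changed sign.

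The count of all genes called moved more. With FICZ it was 14, and 54 in DESeq2's Wald test, 26 without a filter, 2 with the 6 libraries of the pair, 4 with summed counts, 114 in voom and 4 to 101 without single libraries. With tryptamine it was 1, and 12, 2 without a filter, 2 with summed counts, 19 in voom and 1 to 25 without single libraries. Between the treatments it was 0, and 10 in the Wald test, 17 with the pair only, 18 in voom and 0 to 17 without single libraries. The highest of each range was without control replicate 3. The cause was not tested. With the replicate block 4 genes were called with FICZ, and 0 members in any comparison. Whether the replicate numbers pair the samples is not known.

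Precision is limited by 3 libraries a group, of which control replicate 3 stands apart, and for Ddb2 and Bbc3 by 51 to 154 and 65 to 113 reads a library.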
